A study of Homo sapiens with 9 samples.

Results

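BHLHE40 and 9 other genes of the circadian clock were followed in a cisplatin-resistance series on OV90, a human ovarian cancer cell line. The 10 genes were BHLHE40, BHLHE41, PER1, PER2, PER3, CRY1, CRY2, NR1D1, NR1D2 and DBP, taken by symbol from the 43424 gene symbols of the deposited table. BHLHE40 was selected on its measured levels in OV90CisR2 against OV90, where it was far lower, so its values are a description with no test in any comparison, and the other 9 genes were added because they work in the same loop. The groups were OV90CisR2 and OV90CisR1, called resistant and maintained in MCDB-105 medium to which cisplatin had been added, and OV90, called sensitive and maintained without the drug. Each group had 3 libraries of total RNA. Resistance and the presence of cisplatin in the medium cannot be told apart in these groups. The labels do not say whether a resistant line is 1 clone, whether the 3 libraries of a group came from separate cultures, or when the cells were harvested, and name no step that sets the clocks of the cells to a common phase, so the p-values measure the spread between these libraries, which may be technical.

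The circadian clock of mammalian cells is a loop of transcription. CLOCK (or its relative NPAS2) pairs with BMAL1 on E-box sequences and activates the PER and CRY genes, whose proteins return to the nucleus and repress that pair. NR1D1 and NR1D2 (REV-ERB alpha and beta) are nuclear receptors that repress BMAL1, against the RORs, which activate it. BHLHE40 (DEC1) and BHLHE41 (DEC2) are basic helix-loop-helix proteins of the Orange family that bind E-boxes and repress there, and BHLHE40 is also induced by hypoxia and other stresses. DBP is a direct target of CLOCK and BMAL1 and activates genes through D-boxes, so it is an output of the loop rather than a repressor.

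The promoters of BHLHE40, BHLHE41, PER3 and NR1D1 are shown. BHLHE40, PER3 and NR1D1 had the largest log2 differences between lines among the tested members, and BHLHE41 is the near copy of BHLHE40. NR1D1 did not pass the test in any comparison with all libraries. Each is the RefSeq sequence of GRCh38.p14 from 250 bases before the start of the gene to 50 after it, on the strand of the gene. Capitals mark a match to the canonical E-box CACGTG, the E′-box CACGTT, the D-box TTATGNAA or the REV-ERB and ROR half-site TAGGTCA, read on both strands. The BHLHE40 window is chr3:4979187-4979486 on the plus strand, and that of BHLHE41 is chr12:26124988-26125287 on the minus strand. The PER3 window, at the first of its 2 listed starts, is chr1:7784041-7784340 on the plus strand, and that of NR1D1 is chr17:40100540-40100839 on the minus strand.
BHLHE40: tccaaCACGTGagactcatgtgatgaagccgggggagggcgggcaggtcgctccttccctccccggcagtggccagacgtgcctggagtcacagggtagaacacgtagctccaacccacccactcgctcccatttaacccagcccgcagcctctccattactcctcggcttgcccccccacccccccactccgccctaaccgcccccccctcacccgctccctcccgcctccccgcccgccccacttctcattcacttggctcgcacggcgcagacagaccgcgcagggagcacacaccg
BHLHE41: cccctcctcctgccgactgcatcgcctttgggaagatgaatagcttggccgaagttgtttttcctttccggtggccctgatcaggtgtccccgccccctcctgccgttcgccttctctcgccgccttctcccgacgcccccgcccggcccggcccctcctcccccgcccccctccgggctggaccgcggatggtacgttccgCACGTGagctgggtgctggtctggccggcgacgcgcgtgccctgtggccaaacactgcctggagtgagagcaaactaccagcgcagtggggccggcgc
PER3: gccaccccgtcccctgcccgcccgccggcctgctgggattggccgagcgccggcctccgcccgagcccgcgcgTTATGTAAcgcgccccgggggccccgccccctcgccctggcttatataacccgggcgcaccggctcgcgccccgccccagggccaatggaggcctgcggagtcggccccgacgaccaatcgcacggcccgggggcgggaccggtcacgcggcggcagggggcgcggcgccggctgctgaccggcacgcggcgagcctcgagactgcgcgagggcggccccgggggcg
NR1D1: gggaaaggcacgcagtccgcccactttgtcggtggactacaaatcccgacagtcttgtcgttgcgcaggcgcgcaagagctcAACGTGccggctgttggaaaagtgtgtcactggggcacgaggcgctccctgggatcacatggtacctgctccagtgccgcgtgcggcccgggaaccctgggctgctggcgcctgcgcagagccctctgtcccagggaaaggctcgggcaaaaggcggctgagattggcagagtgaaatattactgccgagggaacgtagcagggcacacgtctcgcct
The canonical E-box began 245 bases before the start of BHLHE40 and 48 bases before that of BHLHE41. A D-box began 177 bases before the start of PER3, and an E′-box, here read on the opposite strand, began 168 bases before that of NR1D1. Over all 10 genes, which have 13 listed starts, the canonical E-box was present in 4 promoters (BHLHE40, BHLHE41, PER1 and the second start of NR1D2), against 7.26% of 35116 promoters and 9.32% of the 15848 promoters of tested genes. The E′-box was present in 4 promoters (PER2, CRY1, CRY2 and NR1D1), against 5.34% of all promoters. The D-box was present in 3 (PER1, PER3 and NR1D2), against 3.3%, and the half-site in 1 (CRY2), against 1.85%. No matches overlapped in these windows, and the DBP promoter held none of the 4 motifs.

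Libraries held 5825708 to 7607679 recovered reads, so 3 reads, the floor used here for a gene at 0, correspond to between 2.62 and 3.37 normalised reads. Values are normalised reads, the deposited counts divided by a size factor for each library, made with a kit that reads the 3′ end of transcripts. OV90 replicate 3 and OV90CisR1 replicate 3 stood apart: replicates correlated at 0.978 to 0.982 in the 5 pairs without them and at 0.941 to 0.957 in the 4 pairs with 1 of them, so calls on the named genes that these 2 libraries decide are given with and without both. The fit without both has fewer libraries in OV90 and OV90CisR1. It called more genes in every comparison (3633 against 468 in OV90CisR2 against OV90), so its adjusted p-values are not comparable with those of all 9 libraries. Of 13 ovarian and epithelial markers, 10 averaged under 3 reads a library over the 9 libraries, PAX8 and MUC16 had no read in OV90CisR2 or OV90, and WFDC2 had none in any library. EPCAM and KRT8 were the 2 tested markers of that list. Summed over the list, the markers reached 102 to 129 normalised reads in OV90CisR2, 65.1 to 101 in OV90CisR1 and 49.4 to 78.3 in OV90. KRT8 made up most of the OV90CisR2 sums, at 80.8, 63.0 and 61.6 in those libraries. Fibroblast and endothelial markers summed to 3334 to 4831 in OV90CisR2, 5683 to 10941 in OV90CisR1 and 3079 to 3918 in OV90, mostly COL3A1, a fibrillar collagen, while PECAM1, VWF and KDR had no read in any library. Leukocyte markers summed to 33.2 to 49.1 in OV90CisR2, 71.9 to 140 in OV90CisR1 and 25.2 to 71.0 in OV90, mostly CD68. The part of these marker differences in the results below was not tested, and in bulk RNA fewer cells that express a gene and less RNA per cell cannot be told apart.

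BHLHE40 was low in both resistant lines and lowest in OV90CisR2. The gene, at chr3:4979437-4985323 on the plus strand (GRCh38.p14), had 60.4, 72.6 and 77.4 normalised reads in OV90CisR2, 148, 128 and 77.5 in OV90CisR1, and 269, 217 and 306 in OV90. No library of one line overlapped with another line, although the third replicates of the resistant lines nearly met. The means were 70.1 ± 8.78 in OV90CisR2, 118 ± 36.2 in OV90CisR1 and 264 ± 44.6 in OV90 (SD, n = 3 each), so that OV90CisR2 stood at 0.266 and OV90CisR1 at 0.446 of the OV90 mean. On the log2(value + 1) scale used for all fold changes here, the difference was -1.89 ± 0.25 (SE) for OV90CisR2 against OV90, -1.19 ± 0.25 for OV90CisR1 against OV90 and -0.70 ± 0.25 for OV90CisR2 against OV90CisR1. Without the 2 libraries that stood apart the values were -1.78, -0.81 and -0.97, so the gap between the 2 resistant lines and the gap between OV90CisR1 and OV90 depended on them more than the gap between OV90CisR2 and OV90 did. Of the 14233 genes tested, 0.351% had a lower log2 fold change than BHLHE40 in OV90CisR2 against OV90, the comparison that chose it. In OV90CisR1 against OV90 it was 4.20%, a rank that is not independent of that choice because both comparisons use the same OV90 libraries.

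**Figure D1:**
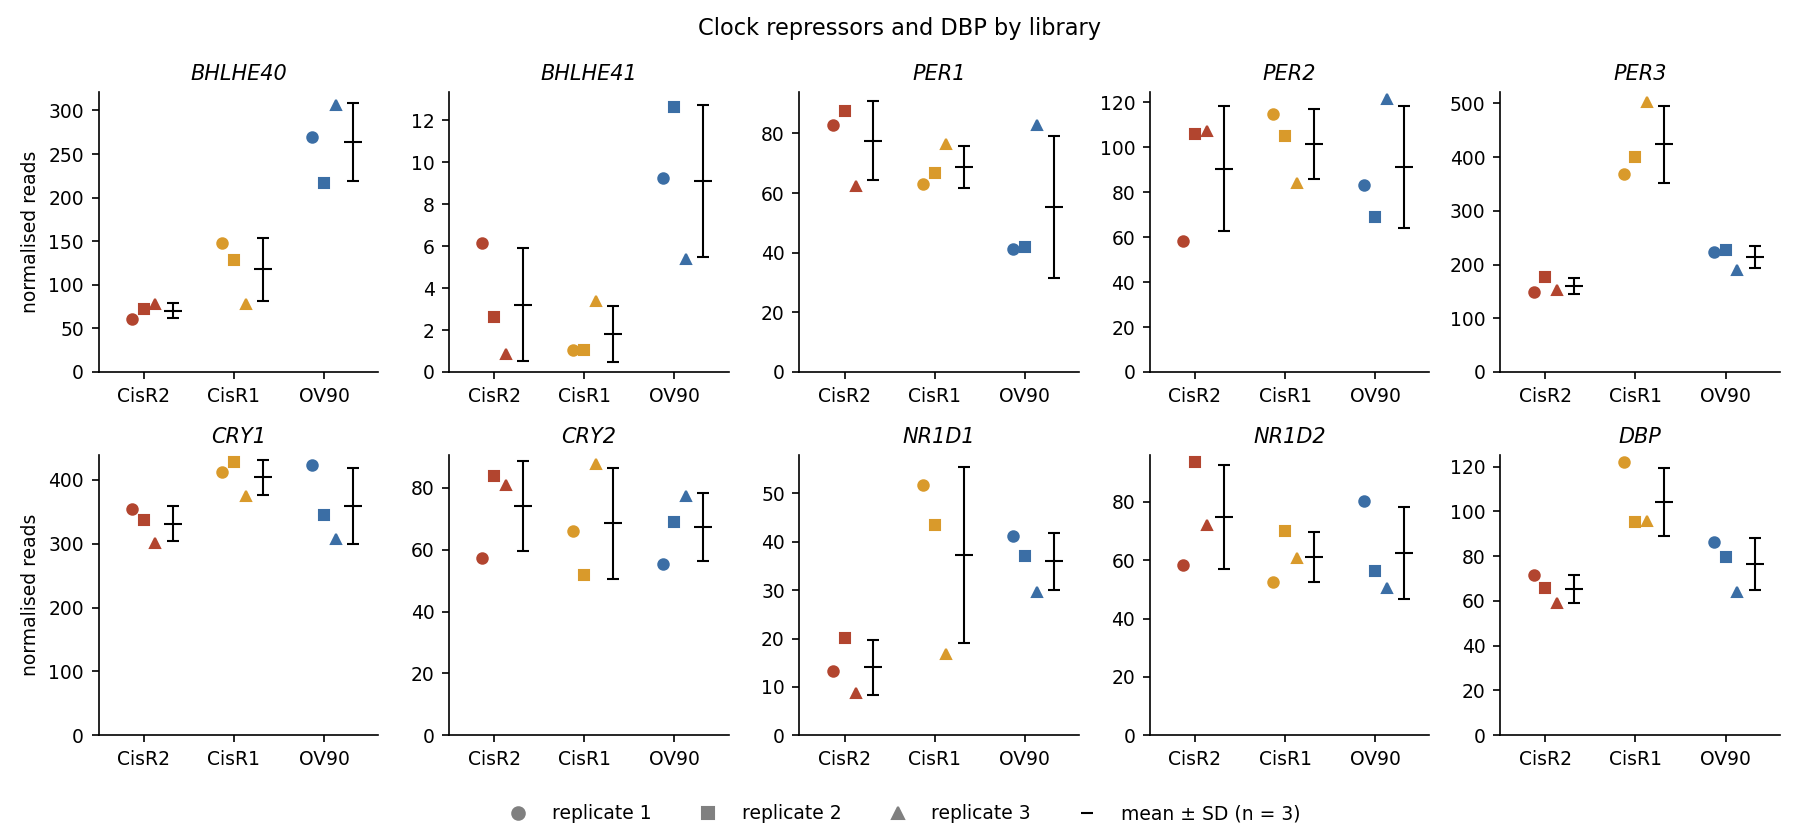
Normalised reads (y axis, a separate linear scale from 0 for each gene) of the 10 genes in each library of OV90CisR2, OV90CisR1 and OV90 (x axis). Points are libraries, shaped by replicate number, and bars are the mean ± SD of 3. BHLHE40 is at 60.4 to 77.4 in OV90CisR2 against 217 to 306 in OV90, and PER3 is at 368 to 503 in OV90CisR1, above every library of the other lines.

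BHLHE41, the closest relative of BHLHE40, was hardly expressed. It had 10 reads over the 3 OV90CisR2 libraries, 5 over the OV90CisR1 libraries and 28 over the OV90 libraries, too few to pass the minimum of 1 CPM (read counts scaled to library size) in 3 libraries, and was not tested. In normalised reads it had 6.14, 2.62 and 0.88 in OV90CisR2, 1.03, 1.06 and 3.37 in OV90CisR1, and 9.25, 12.7 and 5.40 in OV90. The OV90CisR1 libraries all lay below the OV90 libraries and those of OV90CisR2 overlapped with OV90. The annotation places SSPN, a gene of a muscle membrane complex, on the opposite strand over 3137 bases of BHLHE41, away from its 3′ end, and SSPN had 22.5, 23.6 and 42.2 normalised reads in OV90CisR2, 6.20, 13.8 and 7.87 in OV90CisR1, and 66.8, 71.1 and 9.89 in OV90. SSPN was not called against OV90 in OV90CisR2 or OV90CisR1 (limma adjusted p = 0.822 and 0.0623), and without the 2 libraries that stood apart it was lower in both (-1.26 ± 0.37, adjusted p = 0.0215, and -2.76 ± 0.41, adjusted p = 0.000184). Whether counting used the strand is not given in the sources used here, so reads of a gene and of a partner on the opposite strand cannot be told apart. BHLHE40 has such a partner at its 5′ end, BHLHE40-AS1, which reached at most 8.99 normalised reads in any library.

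Among the 5 genes whose levels followed BHLHE40 most closely over the 9 libraries were SETD3, a histidine methyltransferase of actin (Pearson r = 0.978), ROCK2, a kinase of the actin cytoskeleton (0.972), MEIOC, a meiotic factor (0.967), and FNBP1L, a membrane-curving adaptor of actin assembly (0.965). The 5 were the highest among 7115 tested genes with a mean above the median, and since the 9 libraries are 3 lines with 3 libraries each, the order of the lines sets most of such a correlation. SETD3, for example, averaged 720 normalised reads in OV90CisR2, 814 in OV90CisR1 and 1052 in OV90, and ROCK2 averaged 1427 in OV90CisR2, 1551 in OV90CisR1 and 1759 in OV90. These 4 had the line order of BHLHE40, with smaller gaps.

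Among the relatives of BHLHE40 in the same protein family, HEY1 and HES7 rose and HES2 fell in OV90CisR1 against OV90. Of 10 bHLH-Orange relatives (HES and HEY genes, mostly Notch targets), 7 were tested, and the other 4 of these did not pass there, where 15.8% of all tested genes were called. HEY1, a Notch-induced repressor, had 1790, 1741 and 1235 normalised reads in OV90CisR1 against 735, 714 and 541 in OV90, and the groups lay far apart (log2 fold change 1.25 ± 0.18, limma adjusted p = 0.00212). HEY1 was at 799, 659 and 878 in OV90CisR2, near OV90, and fell in OV90CisR2 against OV90CisR1 (-1.02 ± 0.18, limma adjusted p = 0.00705). HES7, an oscillator of somite formation, rose in OV90CisR1 against OV90 (1.29 ± 0.27, limma adjusted p = 0.0112), and HES2 fell (-0.78 ± 0.21, limma adjusted p = 0.0309), a call lost when OV90 replicate 1 or 2, OV90CisR1 replicate 1 or 2 or OV90CisR2 replicate 1 or 3 was left out (adjusted p up to 0.117). In OV90CisR2 against OV90 limma called 0 of 7, where 3.29% of all tested genes were called. Of the 7, 2 had an unadjusted limma p under 0.05. There edgeR called 0, and DESeq2 called 1 higher and 1 lower. Without the 2 libraries that stood apart 2 rose and 3 fell there, where 3633 of 14233 tested genes were called. In that fit HES7 rose (1.19 ± 0.21, limma adjusted p = 0.000776) and HES2 fell (-0.98 ± 0.19, limma adjusted p = 0.00163). The list medians were 0.09 in OV90CisR2 against OV90, -0.25 in OV90CisR1 against OV90 and -0.03 between the resistant lines, beside 0.00, -0.01 and 0.03 over all genes.

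Some hypoxia-inducible genes, the group that BHLHE40 belongs to by its best-known stimulus, fell in the resistant lines against OV90, and the level of the list moved with the 2 libraries that stood apart. Of 25 listed genes, which leave out BHLHE40 itself, 23 were tested. In OV90CisR2 against OV90, 0 rose and 4 fell, where 3.29% of all tested genes were called, and the list median was -0.53 on the log2 scale, beside 0.00 over all genes. In OV90CisR1 against OV90, 0 rose and 6 fell, where 15.8% of all tested genes were called, and the list median was -0.56, beside -0.01 over all genes. DDIT4, an inhibitor of mTORC1, had 16.4, 14.0 and 15.8 normalised reads in OV90CisR2, 22.7, 36.1 and 23.6 in OV90CisR1, and 67.9, 46.7 and 131 in OV90. It was below every OV90 library in both resistant lines, and fell in OV90CisR2 (-2.21 ± 0.37, limma adjusted p = 0.00682) and in OV90CisR1 (-1.44 ± 0.37, limma adjusted p = 0.0246). The call in OV90CisR1 was lost without OV90 replicate 1 or without OV90CisR1 replicate 1 (adjusted p up to 0.063), and without both libraries that stood apart (adjusted p = 0.0555). MXI1, a MYC antagonist, fell in OV90CisR2 against OV90 (-1.08 ± 0.17, limma adjusted p = 0.00548). It also fell in OV90CisR1 against OV90 (-0.56 ± 0.17, limma adjusted p = 0.0488). That call was lost without both libraries that stood apart (adjusted p = 0.071), and the adjusted p was up to 0.095 with 1 library left out. NDRG1, a stress-induced cytoplasmic protein, fell in OV90CisR1 against OV90 (-1.78 ± 0.27, limma adjusted p = 0.0023). Between the resistant lines NDRG1 was the 1 gene of 23 called, higher in OV90CisR2 (1.59 ± 0.27, limma adjusted p = 0.005). There 10.1% of all tested genes were called. Without the 2 libraries that stood apart, 4 genes of the list rose and 5 fell in OV90CisR2 against OV90, with a list median of -0.05. In OV90CisR1 against OV90 there were then 2 that rose and 3 that fell, with a list median of -0.07. Between the resistant lines 4 were then higher and 6 lower in OV90CisR2. Of all 14233 tested genes, that fit called 3633 in OV90CisR2 against OV90, 3901 in OV90CisR1 against OV90 and 3750 between the resistant lines.

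The mean log2 level of the 23 hypoxia-inducible genes was 7.54, 7.38 and 7.55 in OV90CisR2, 7.48, 7.53 and 7.08 in OV90CisR1, and 7.71, 7.57 and 8.74 in OV90. OV90 replicate 3 was the highest library both in this mean and in BHLHE40, and OV90CisR1 replicate 3 was the lowest in this mean and the lowest of its line in BHLHE40. Within OV90, replicates 1 and 2, which lie near the resistant lines in the hypoxia mean, had 269 and 217 normalised reads of BHLHE40, above all 6 resistant libraries. The part of the hypoxia-inducible genes in the BHLHE40 difference was not tested.

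**Figure D2:**
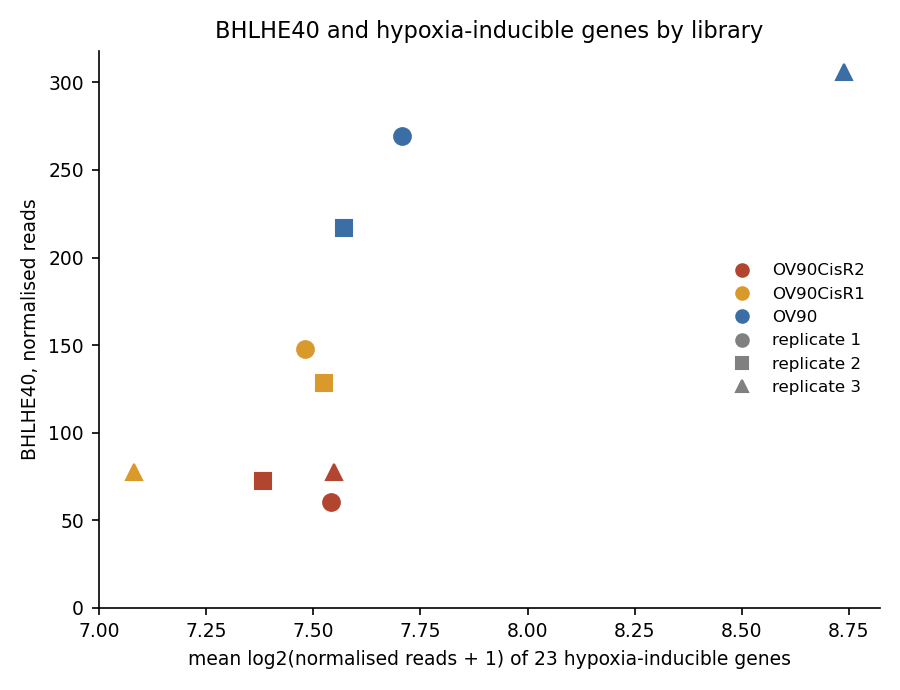
BHLHE40 in normalised reads (y axis, linear) against the mean log2(normalised reads + 1) of 23 hypoxia-inducible genes (x axis) in the 9 libraries, coloured by line and shaped by replicate number. OV90 replicate 3 is alone at a mean of 8.74, while OV90 replicates 1 and 2, at 7.71 and 7.57, stay above the resistant libraries in BHLHE40.

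PER3 was the member with a clear change of its own, and the 2 resistant lines lay on opposite sides of OV90. PER3, a period protein that binds PER1, PER2 and the cryptochromes, lies at chr1:7784291-7845177 on the plus strand. It had 149, 177 and 152 normalised reads in OV90CisR2, 368, 400 and 503 in OV90CisR1, and 224, 227 and 190 in OV90. All OV90CisR1 libraries were above, and all OV90CisR2 libraries below, every OV90 library. PER3 rose in OV90CisR1 against OV90 (log2 fold change 0.98 ± 0.16, limma adjusted p = 0.00404) and was lower in OV90CisR2 than in OV90CisR1 (-1.40 ± 0.16, limma adjusted p = 0.000757), which is also the test that the changes of the 2 lines from OV90 differ. Leaving out any 1 library kept both calls, with adjusted p up to 0.0172 for OV90CisR1 against OV90 and up to 0.00886 between the resistant lines. OV90CisR2 against OV90 gave -0.42 ± 0.16 (limma adjusted p = 0.206), and without the 2 libraries that stood apart -0.50 ± 0.13 (limma adjusted p = 0.00979). UTS2 lies on the opposite strand over the last 2095 bases of PER3, and it had 0 reads in all 9 libraries.

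PER1 and PER2, the period genes that carry most of the repression in mice, did not pass the test. PER1 had 82.9, 87.5 and 62.5 normalised reads in OV90CisR2, 63.0, 66.8 and 76.4 in OV90CisR1, and 41.1, 41.9 and 82.7 in OV90. OV90 replicate 3 lay among the resistant libraries and the other 2 OV90 libraries lay below them all. OV90CisR2 against OV90 gave 0.55 ± 0.28 (limma adjusted p = 0.351), and without OV90 replicate 3 the adjusted p was 0.0402. Without both libraries that stood apart PER1 was 0.87 ± 0.22 higher in OV90CisR2 (limma adjusted p = 0.00871). In OV90CisR1 against OV90 it was 0.38 ± 0.28 (limma adjusted p = 0.365), and 0.63 ± 0.24 without both (limma adjusted p = 0.0621). PER2 had 58.3, 106 and 107 normalised reads in OV90CisR2, 115, 105 and 84.3 in OV90CisR1, and 83.3, 69.1 and 121 in OV90. The 3 groups overlapped, and its log2 fold changes were -0.03 ± 0.29 for OV90CisR2 against OV90, 0.18 ± 0.29 for OV90CisR1 against OV90 and -0.20 ± 0.29 between the resistant lines (limma adjusted p from 0.683 to 0.977).

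The cryptochromes differed little between lines. CRY1, the stronger repressor of CLOCK and BMAL1, had 355, 338 and 302 normalised reads in OV90CisR2, 412, 427 and 374 in OV90CisR1, and 424, 346 and 308 in OV90. The resistant lines did not overlap with each other and both overlapped with OV90. The difference between OV90CisR2 and OV90CisR1 was -0.29 ± 0.15 (limma adjusted p = 0.238), and -0.34 ± 0.12 without the 2 libraries that stood apart (limma adjusted p = 0.047). CRY2 had 57.3, 84.0 and 80.9 normalised reads in OV90CisR2, 66.1, 52.0 and 87.6 in OV90CisR1, and 55.5, 69.1 and 77.4 in OV90. All 3 groups overlapped, with log2 fold changes from 0.01 to 0.13 and limma adjusted p from 0.79 to 0.989.

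NR1D1 was low in OV90CisR2, at a depth of few reads. NR1D1, the REV-ERB alpha receptor at chr17:40092793-40100589 on the minus strand, had 13.3, 20.1 and 8.80 normalised reads in OV90CisR2, 51.7, 43.5 and 16.9 in OV90CisR1, and 41.1, 37.0 and 29.7 in OV90, from 46 recovered reads over the OV90CisR2 libraries, 106 over the OV90CisR1 libraries and 111 over the OV90 libraries. Every OV90CisR2 library was below every OV90 library, and OV90CisR1 replicate 3 fell among the OV90CisR2 libraries. OV90CisR2 against OV90 gave -1.35 ± 0.43 (limma adjusted p = 0.124, unadjusted p = 0.00943). The adjusted p was 0.0275 without OV90CisR1 replicate 3, which enters only the common estimate of the spread, and 0.00564 without both libraries that stood apart, with a log2 fold change of -1.48 ± 0.34. Between the resistant lines it was -1.27 ± 0.43 (limma adjusted p = 0.0837). That adjusted p was 0.0109 without OV90CisR1 replicate 3, and DESeq2 gave 0.0263. OV90CisR1 against OV90 gave -0.08 ± 0.43 (limma adjusted p = 0.918), and 0.27 ± 0.38 without both libraries (limma adjusted p = 0.627). THRA, a thyroid hormone receptor gene on the opposite strand, covers the last 1081 bases of NR1D1. THRA had 236, 234 and 252 normalised reads in OV90CisR2, 293, 322 and 226 in OV90CisR1, and 230, 233 and 479 in OV90, with no call in any comparison (limma adjusted p from 0.614 to 0.84). Without the 2 libraries that stood apart THRA was 0.41 ± 0.13 higher in OV90CisR1 than in OV90 (limma adjusted p = 0.0284) and lower in OV90CisR2 than in OV90CisR1, at -0.35 ± 0.12 (limma adjusted p = 0.0389).

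NR1D2, the REV-ERB beta receptor, did not follow NR1D1. It had 58.3, 93.6 and 72.1 normalised reads in OV90CisR2, 52.7, 70.0 and 60.7 in OV90CisR1, and 80.2, 56.5 and 50.4 in OV90. The 3 groups overlapped, with 0.26 ± 0.25 for OV90CisR2 against OV90 (limma adjusted p = 0.655), -0.01 ± 0.25 for OV90CisR1 against OV90 (limma adjusted p = 0.985) and 0.27 ± 0.25 between the resistant lines (limma adjusted p = 0.523).

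DBP, the output gene of the list, had the line order of PER3. It had 71.6, 65.6 and 58.9 normalised reads in OV90CisR2, 122, 95.5 and 95.5 in OV90CisR1, and 86.4, 79.8 and 63.9 in OV90. The OV90CisR1 libraries were above all others, and OV90CisR2 overlapped with OV90. The log2 fold changes were -0.22 ± 0.20 for OV90CisR2 against OV90 (limma adjusted p = 0.631), 0.44 ± 0.20 for OV90CisR1 against OV90 (limma adjusted p = 0.156) and -0.66 ± 0.20 for OV90CisR2 against OV90CisR1 (limma adjusted p = 0.0633). The adjusted p between the resistant lines was 0.0131 without both libraries that stood apart, 0.0377 after quantile normalisation and 0.0399 with DESeq2. SPHK2, a sphingosine kinase gene on the opposite strand, covers the last 688 bases of DBP, and had 101, 101 and 113 normalised reads in OV90CisR2, 120, 141 and 190 in OV90CisR1, and 56.6, 62.3 and 121 in OV90. SPHK2 rose in OV90CisR1 against OV90 (0.96 ± 0.28, limma adjusted p = 0.0408), a call lost when any of 7 libraries was left out (adjusted p up to 0.141) and with an adjusted p of 0.000616 without both libraries that stood apart. The part of SPHK2 reads in the DBP values was not tested.

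**Figure D3:**
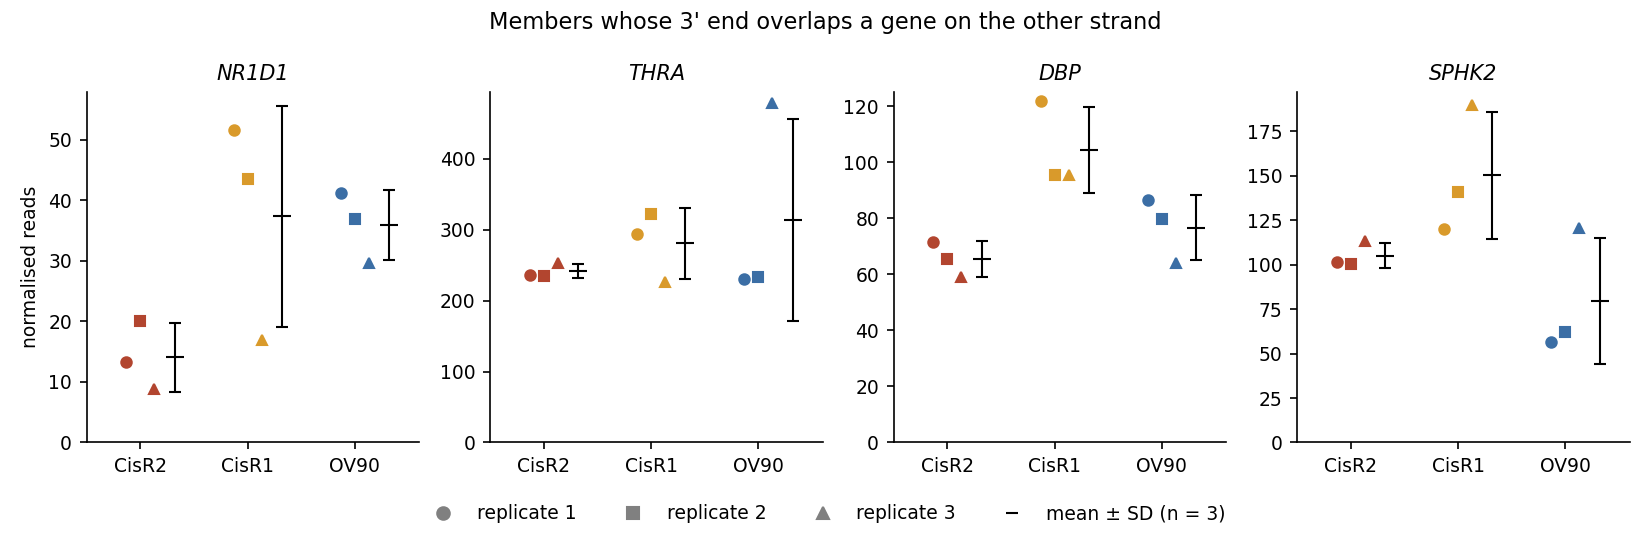
Normalised reads (y axis, linear from 0, a separate scale for each gene) of NR1D1 and DBP, each beside the gene that covers its 3′ end on the opposite strand, in the libraries of OV90CisR2, OV90CisR1 and OV90 (x axis). Points are libraries and bars are the mean ± SD of 3. NR1D1 is at 8.80 to 20.1 in OV90CisR2 while THRA is at 234 to 252, and in OV90CisR1 both DBP and SPHK2 are higher on average than in OV90.

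Over the 8 tested members other than BHLHE40, few calls were made, at shares near those of all genes. In OV90CisR2 against OV90 limma called 0 of 8, where 3.29% of all tested genes were called (2.35% higher and 0.941% lower). At an unadjusted limma p under 0.05 there were 2 members in that comparison, a level at which all genes were not counted. There edgeR and DESeq2 each called 0. Without the 2 libraries that stood apart 1 member rose (PER1) and 2 fell (PER3 and NR1D1), where 3633 of 14233 tested genes were called. In OV90CisR1 against OV90 limma called 1 of 8, PER3, where 15.8% of all tested genes were called (8.54% higher and 7.29% lower). In OV90CisR2 against OV90CisR1 it called 1 of 8, again PER3, where 10.1% of all tested genes were called (5.16% higher and 4.9% lower). Without the 2 libraries limma called 4 there (PER3, CRY1, NR1D1 and DBP, all lower), where 3750 of 14233 tested genes were called. Groups that did not overlap were found for 2 of 8 members in OV90CisR2 against OV90 (PER3 and NR1D1, both lower), where 27% of all tested genes did not overlap (13.6% higher and 13.5% lower). There were 2 of 8 in OV90CisR1 against OV90 (PER3 and DBP, both higher), where 34.7% did not overlap (17.5% higher and 17.1% lower). Between the resistant lines there were 3 of 8 (PER3, CRY1 and DBP, all lower in OV90CisR2), where 37.6% did not overlap (19.4% higher and 18.2% lower). The median log2 fold change of the 8 was -0.06 in OV90CisR2 against OV90, 0.18 in OV90CisR1 against OV90 and -0.24 between the resistant lines, beside 0.00, -0.01 and 0.03 over all genes. The comparisons with OV90 share the OV90 libraries.

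**Figure D4:**
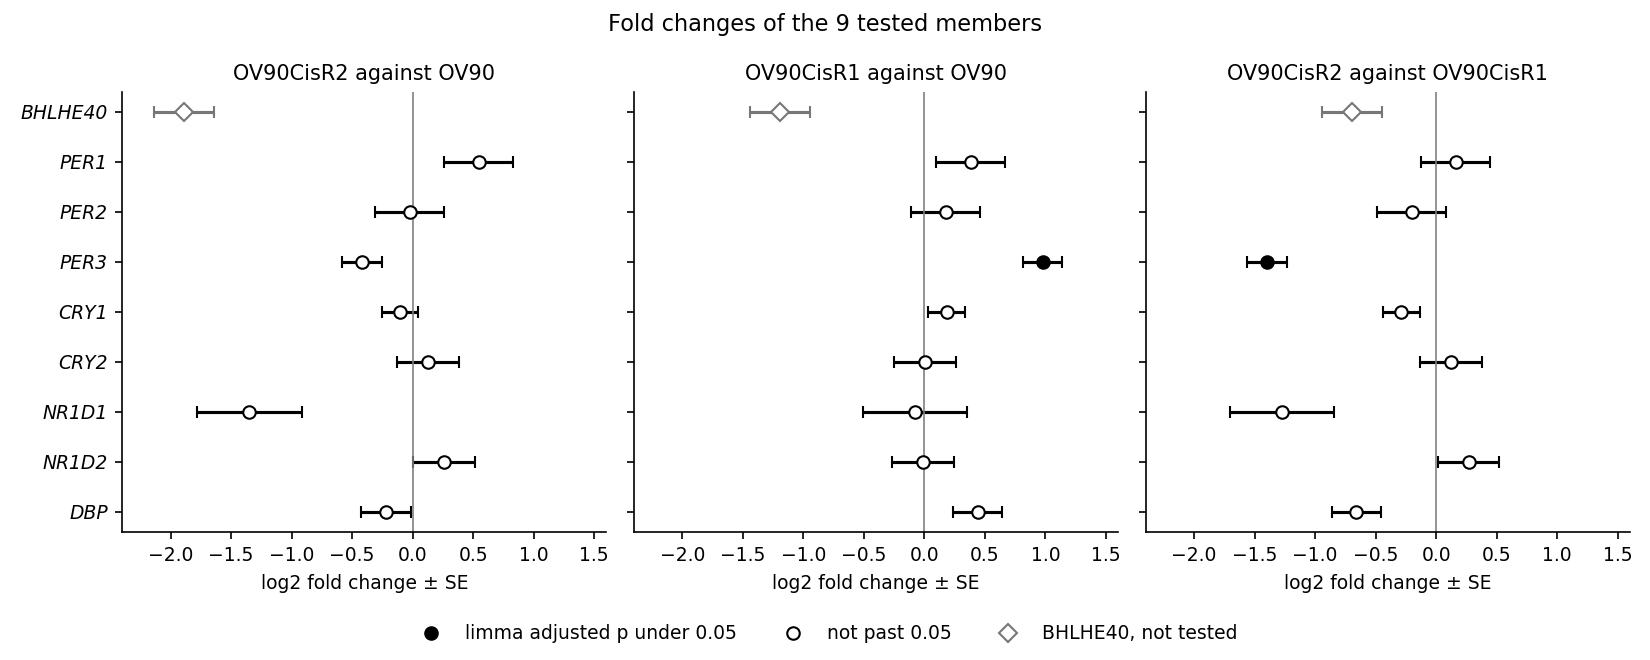
Log2 fold change ± SE (x axis) of the 9 tested members (y axis) in OV90CisR2 against OV90, OV90CisR1 against OV90 and OV90CisR2 against OV90CisR1. Filled circles passed a limma adjusted p of 0.05, open circles did not, and the grey diamond is BHLHE40, which was not tested. PER3 is the filled point, at 0.98 in OV90CisR1 against OV90 and -1.40 between the resistant lines.

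Among the activators that these repressors act on, NPAS2 and BMAL2 were lower in OV90CisR1. NPAS2, the relative of CLOCK, had 32.7, 33.2 and 29.9 normalised reads in OV90CisR2, 18.6, 14.9 and 3.37 in OV90CisR1, and 31.9, 52.6 and 34.2 in OV90. BMAL2, the relative of BMAL1, had 36.8, 55.1 and 42.2 in OV90CisR2, 28.9, 18.0 and 13.5 in OV90CisR1, and 65.8, 47.7 and 39.6 in OV90. All OV90CisR1 libraries lay below those of the other 2 lines for both genes. In OV90CisR1 against OV90 NPAS2 fell (-1.84 ± 0.49, limma adjusted p = 0.0303) and BMAL2 fell (-1.33 ± 0.33, limma adjusted p = 0.0215). The NPAS2 call was lost without OV90 replicate 1 or 2 or OV90CisR2 replicate 1 or 3 (adjusted p up to 0.0929), and the BMAL2 call without OV90 replicate 1 or 2 or OV90CisR1 replicate 2 (adjusted p up to 0.0858). Without both libraries that stood apart the adjusted p was 0.0123 for NPAS2, at a log2 fold change of -1.25, and 0.00911 for BMAL2. BMAL2 was higher in OV90CisR2 than in OV90CisR1 (1.16 ± 0.33, limma adjusted p = 0.0468), a call lost when any of 7 libraries was left out (adjusted p up to 0.148), and NPAS2 was at 1.57 ± 0.49 there (limma adjusted p = 0.0669), and at 0.90 ± 0.31 without both libraries that stood apart (limma adjusted p = 0.0412).

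CLOCK averaged 531 ± 22.7 normalised reads in OV90CisR2, 460 ± 56.3 in OV90CisR1 and 531 ± 15.7 in OV90 (SD, n = 3 each), with limma adjusted p from 0.268 to 0.998. BMAL1, the gene that NR1D1 and NR1D2 repress, had few reads, with 13.3, 14.0 and 14.1 normalised reads in OV90CisR2, 10.3, 6.36 and 2.25 in OV90CisR1, and 10.3, 14.6 and 9.89 in OV90. OV90CisR1 replicate 3 was the lowest library for BMAL1, as it was for NPAS2 and BMAL2, and BMAL1 was not called in any comparison (limma adjusted p from 0.127 to 0.834). RORA, which activates BMAL1, had 6.14, 4.37 and 7.92 in OV90CisR2, 12.4, 15.9 and 4.49 in OV90CisR1, and 20.6, 41.9 and 10.8 in OV90. Its OV90CisR2 libraries lay below all OV90 libraries, at -1.66 ± 0.56 (limma adjusted p = 0.14, and 0.0448 without OV90 replicate 3). RORB had at most 15 reads over the libraries of a line. Of the 6 tested activators, limma called 2 in OV90CisR1 against OV90, where 15.8% of all tested genes were called. Between the resistant lines it called 1, where 10.1% of all tested genes were called. In OV90CisR2 against OV90 it called 0, where 3.29% of all tested genes were called. There 1 had an unadjusted limma p under 0.05, edgeR called 0 and DESeq2 called 1 lower. Without the 2 libraries that stood apart 1 fell there (RORA), where 3633 of 14233 tested genes were called. The median log2 fold change of the activators was -0.20 in OV90CisR2 against OV90, -0.99 in OV90CisR1 against OV90 and 0.69 between the resistant lines, beside 0.00, -0.01 and 0.03 over all genes.

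**Figure D5:**
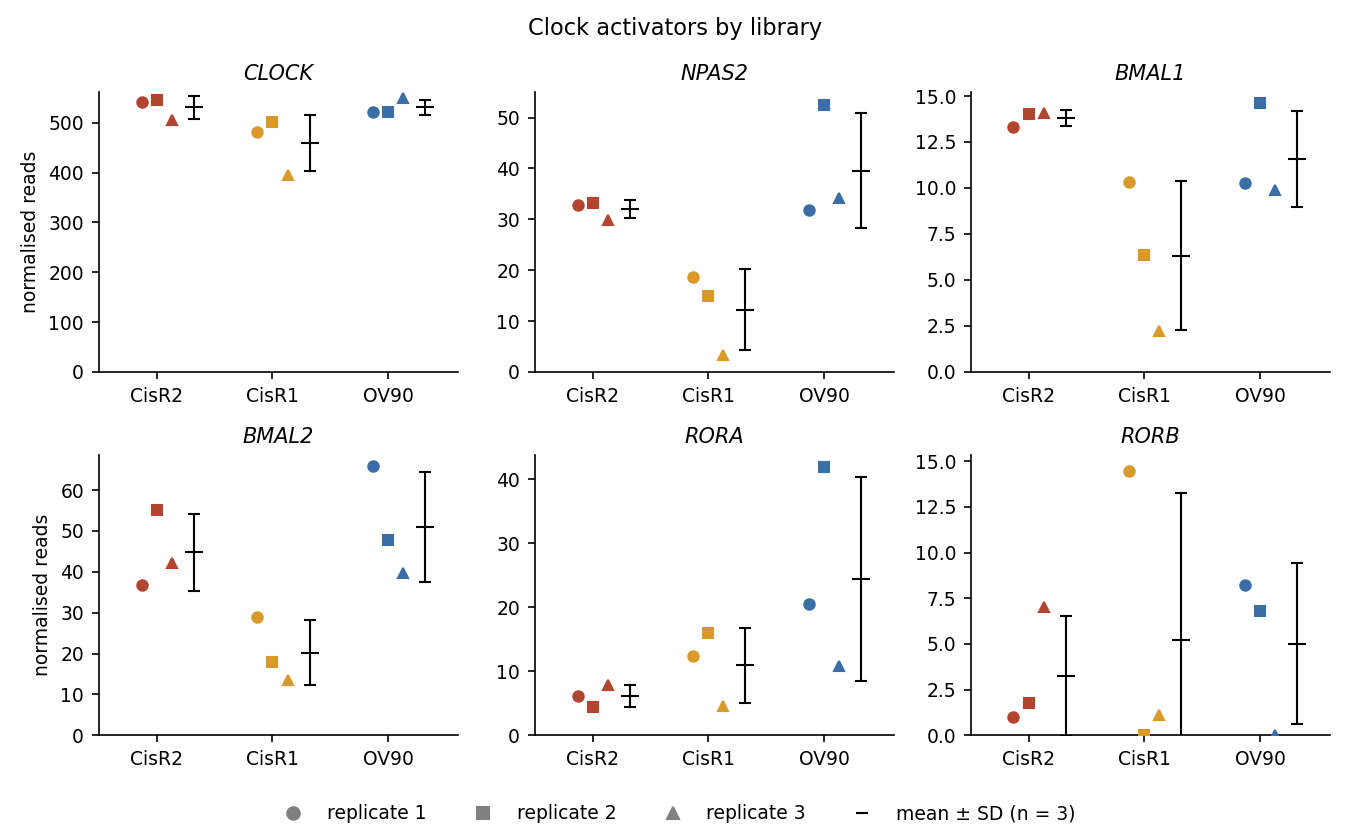
Normalised reads (y axis, linear from 0, a separate scale for each gene) of the 6 tested clock activators in each library of OV90CisR2, OV90CisR1 and OV90 (x axis). Points are libraries, shaped by replicate number, and bars are the mean ± SD of 3. NPAS2 and BMAL2 are lowest in OV90CisR1, where replicate 3 is the lowest library, while CLOCK lies between 396 and 549 in all libraries.

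PRKAA2 was the gene called among the enzymes that modify the repressor proteins. Of 12 kinases, ubiquitin ligases and a deubiquitinase of the clock, 11 were tested. Of the 11, 1 was called in OV90CisR1 against OV90, where 15.8% of all tested genes were called. Between the resistant lines 1 was called, where 10.1% of all tested genes were called. PRKAA2 encodes the alpha 2 subunit of AMPK, which marks cryptochromes for degradation in mice. PRKAA2 had 94.2, 77.0 and 83.6 normalised reads in OV90CisR2, 21.7, 31.8 and 15.7 in OV90CisR1, and 117, 98.3 and 38.7 in OV90. OV90CisR1 was below both other lines. PRKAA2 fell in OV90CisR1 against OV90 (-1.74 ± 0.39, limma adjusted p = 0.0152), a call lost without OV90 replicate 1 or 2 (adjusted p up to 0.0628), and was higher in OV90CisR2 than in OV90CisR1 (1.88 ± 0.39, limma adjusted p = 0.0134), a call lost without OV90CisR2 replicate 1 or 3 (adjusted p up to 0.0668). In OV90CisR2 against OV90 limma called 0 of 11, where 3.29% of all tested genes were called. There 1 had an unadjusted limma p under 0.05, and edgeR and DESeq2 each called 0. Without the 2 libraries that stood apart 1 rose and 1 fell there, where 3633 of 14233 tested genes were called. The medians of these enzymes were -0.06 in OV90CisR2 against OV90, -0.29 in OV90CisR1 against OV90 (8 of 11 below 0) and 0.29 between the resistant lines (8 of 11 above 0), beside 0.00, -0.01 and 0.03 over all genes.

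Of 8 other genes known as clock outputs (TEF, HLF, NFIL3, CIART, WEE1, NOCT, KLF10 and NAMPT), 7 were tested. Of the 7, 1 was called in OV90CisR1 against OV90, where 15.8% of all tested genes were called. KLF10, a TGF-beta-induced zinc finger repressor, had 232, 166 and 221 normalised reads in OV90CisR2, 282, 224 and 65.2 in OV90CisR1, and 506, 328 and 500 in OV90. Both resistant lines were below OV90, and KLF10 fell in OV90CisR1 against OV90 (-1.44 ± 0.44, limma adjusted p = 0.046), a call lost when any OV90 or OV90CisR2 library was left out (adjusted p up to 0.133). Its log2 fold change was -0.70 ± 0.20 without both libraries that stood apart (limma adjusted p = 0.0189). In OV90CisR2 against OV90 limma called 0 of 7, with 1 at an unadjusted p under 0.05, and between the resistant lines 0, with 0 at that level. Of all tested genes, 3.29% were called in OV90CisR2 against OV90 and 10.1% between the resistant lines. In both of these comparisons edgeR and DESeq2 called 0. Without the 2 libraries that stood apart 1 fell in OV90CisR2 against OV90 (KLF10) and 1 was higher in OV90CisR2 than in OV90CisR1. Of all 14233 tested genes, that fit called 3633 in OV90CisR2 against OV90 and 3750 between the resistant lines. The medians of these output genes were -0.25 in OV90CisR2 against OV90, -0.33 in OV90CisR1 against OV90 and 0.07 between the resistant lines, beside 0.00, -0.01 and 0.03 over all genes.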

How the data were processed

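Total RNA of 9 libraries was sequenced from the 3′ end with the QuantSeq kit, single-end, per the labels' protocols. The submitters' processing notes name Bowtie2, bedtools, edgeR and GRCh38, without versions. The deposited signal values are reads per gene divided by a size factor for each library: they turned out to be whole multiples of 1 step per library in 100% of values (tolerance 1e-06), and the factors equalled median-of-ratios size factors. The sources used here give neither filters nor strand handling.

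Genes with at least 1 CPM, computed from the recovered reads, in 3 libraries were kept (14233). log2(value + 1) was tested with limma 3.58.1 (variance trend, R 4.3.3) over all 9 libraries with 1 mean per line, and p-values were adjusted by Benjamini-Hochberg over all genes tested, threshold 0.05. This scale understates the change of low genes. The recovered counts were also tested with edgeR 4.0.16, which called 506 genes in OV90CisR2 against OV90, 2286 in OV90CisR1 against OV90 and 1515 between the resistant lines, and with DESeq2 1.42.0. The procedure was tested on simulated data. Library depths of 5825708 to 7607679 reads limit the precision of low genes, and the floor of 3 reads covers counting error only.

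The 10 genes and all gene lists were chosen with earlier results of these data known. Named genes were all 10 members, the activators, in each other list the (at most 2) largest rises and the (at most 2) largest falls among called genes, the 5 genes most like BHLHE40, and genes that overlap a member; some genes under this rule, and 1 list, are not reported here. Sequences and starts are from RefSeq (GRCh38.p14), and overlaps from GENCODE v29.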

Additional observations from a re-analysis of the deposited data

Results flagged for a closer look

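Of the 8 tested members other than BHLHE40, only PER3 passed the limma test on all 9 libraries for a difference between the changes of the resistant lines. DESeq2 called 3 members there. Without the 2 libraries that stood apart CRY1, NR1D1 and DBP also passed with limma, where 3750 of 14233 tested genes were called. The log2 fold change of PER3 against OV90 was -0.42 in OV90CisR2 and 0.98 in OV90CisR1. Only the change in OV90CisR1 was called (limma adjusted p = 0.00404, against 0.206 in OV90CisR2). The difference between these changes, which equals OV90CisR2 against OV90CisR1, was -1.40 ± 0.16 (SE, limma adjusted p = 0.000757). All 3 OV90CisR2 libraries were below, and all 3 OV90CisR1 libraries above, the 3 OV90 libraries. Of all tested genes, 27% did not overlap in OV90CisR2 against OV90 and 34.7% in OV90CisR1 against OV90. The same difference passed the test for 8 genes of the other lists, where 10.1% of all tested genes were called. It was -1.02 for HEY1 (limma adjusted p = 0.00705), 1.16 for BMAL2 (limma adjusted p = 0.0468), 1.88 for PRKAA2 (limma adjusted p = 0.0134) and 1.59 for NDRG1 (limma adjusted p = 0.005). Among the marker genes it was 2.75 for LUM (limma adjusted p = 0.00897), 1.43 for DCN (limma adjusted p = 0.00829), -1.31 for COL3A1 (limma adjusted p = 0.00939) and -1.42 for CD68 (limma adjusted p = 0.0363).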

How the results depend on the processing

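Beside the test as reported, 11 other settings and 9 fits that each left out 1 library were run. Of 540 member fold changes under these alternatives, 506 kept their direction and side of the threshold or, for BHLHE40, moved by less than the spread, 13 passed the threshold only under the alternative, 1 of BHLHE40 moved and 20 changed sign, none of them past the threshold in either fit. For OV90CisR2 against OV90, PER2 was at 0.20 without the 2 libraries that stood apart, and leaving out 1 library gave -0.20 to 0.26 for PER2, -0.21 to 0.021 for CRY1 and -0.0013 to 0.30 for CRY2. For OV90CisR1 against OV90, NR1D1 was at 0.074 with edgeR, 0.063 with DESeq2 and 0.27 without the 2 libraries, NR1D2 at 0.018 after quantile normalisation and 0.0015 with TMM scaling, and CRY2 at -0.078 without the 2 libraries. Leaving out 1 library there gave -0.0013 to 0.40 for PER2, -0.18 to 0.19 for CRY2, -0.38 to 0.40 for NR1D1 and -0.15 to 0.18 for NR1D2. Between the resistant lines it gave -0.35 to 0.084 for PER2 and -0.059 to 0.31 for CRY2. The count of members called, with BHLHE40 left out, was 1 in OV90CisR1 against OV90 under every alternative. In OV90CisR2 against OV90 it was 0 as reported and 3 without the 2 libraries that stood apart, and 0 to 1 with 1 library left out. In OV90CisR2 against OV90CisR1 it was 1 as reported, 2 after quantile normalisation, 3 with DESeq2 and 4 without the 2 libraries, and 1 to 2 with 1 library left out. Over all genes, calls in OV90CisR2 against OV90 were 468 as reported, 878 with DESeq2, 3633 without the 2 libraries and 177 to 1312 with 1 left out (1312 when OV90 replicate 3 and 1071 when OV90CisR1 replicate 3 was left out, while leaving out OV90 replicate 1 gave 223 and replicate 2 gave 274, and leaving out OV90CisR2 replicate 1 gave 184, replicate 2 gave 196 and replicate 3 gave 177). In OV90CisR1 against OV90 they were 2252 as reported, 771 with only these 2 lines fitted, 3901 without the 2 libraries and 939 to 2467 with 1 left out (939 without OV90 replicate 1 and 1358 without OV90 replicate 2). In OV90CisR2 against OV90CisR1 they were 1433 as reported, 3750 without the 2 libraries and 442 to 2327 with 1 left out (2327 without OV90 replicate 3 and 952 without OV90CisR1 replicate 1, while leaving out OV90CisR2 replicate 1 gave 450, replicate 2 gave 663 and replicate 3 gave 442). The cause of these moves was not tested. No pairing of libraries by replicate number was seen. Deviations from the line means correlated at -0.307 to 0.0899 between libraries of the same number and at -0.201 to 0.339 between others. Not every library correlated best with its own number. These correlations cannot exclude that libraries of the same number shared a step. With the replicate number as a block the calls were 287 in OV90CisR2 against OV90, 1615 in OV90CisR1 against OV90 and 875 in OV90CisR2 against OV90CisR1, and the members called stayed at 0, 1 and 1. Depth limits genes of few reads such as BHLHE41, with 5 to 28 over the 3 libraries of a line, RORB, with 11 to 15, and NR1D1, with 46 to 111.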

Other observations

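Glucocorticoid-responsive genes, whose hormone also induces PER1 through a separate element, held the largest change against OV90 among the tested genes of all lists in each resistant line. SGK1, a serum- and glucocorticoid-induced kinase, had 168, 238 and 203 normalised reads in OV90CisR2, 103, 95.5 and 68.5 in OV90CisR1, and 7.20, 10.7 and 1.80 in OV90. Both resistant lines were far above OV90, and SGK1 rose in OV90CisR2 (log2 fold change 4.97 ± 0.44, limma adjusted p = 7.32e-05) and in OV90CisR1 (3.78 ± 0.44, limma adjusted p = 0.000676). The other 4 tested genes of that list, TSC22D3, FKBP5, DUSP1 and KLF9, were not called with all 9 libraries. So 1 of 5 rose in each comparison with OV90, where 2.35% of all tested genes rose in OV90CisR2 and 8.54% in OV90CisR1. The list medians were 0.09 in OV90CisR2 and -0.16 in OV90CisR1, beside 0.00 and -0.01 over all genes. Between the resistant lines limma called 0 of 5, where 10.1% of all tested genes were called. There 1 had an unadjusted limma p under 0.05, and edgeR and DESeq2 each called 1 higher in OV90CisR2. SGK1 gave 1.19 ± 0.44 there (limma adjusted p = 0.108), and 1.01 ± 0.23 without the 2 libraries that stood apart (limma adjusted p = 0.00416). TSC22D3 (GILZ) had 296, 239 and 249 normalised reads in OV90CisR2, 192, 338 and 561 in OV90CisR1, and 1787, 1621 and 293 in OV90, where replicate 3 lay with the resistant libraries. It gave -1.86 ± 0.58 in OV90CisR2 against OV90 (limma adjusted p = 0.117) and -1.51 ± 0.58 in OV90CisR1 against OV90 (limma adjusted p = 0.0982). Without OV90 replicate 3 and OV90CisR1 replicate 3 TSC22D3 fell in both, at -2.71 ± 0.18 (limma adjusted p = 5.84e-08) and -2.73 ± 0.19 (limma adjusted p = 2.17e-07). The value in OV90CisR2 rests on leaving out OV90 replicate 3, the OV90 library at the level of the resistant lines. The value in OV90CisR1 rests on leaving out both. There the fall was also called when only OV90 replicate 3 or only OV90CisR1 replicate 3 was left out. With all libraries edgeR called 1 gene of the list lower in each.

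Among the marker lists, DCN, the proteoglycan decorin, rose in OV90CisR2 against OV90 (2.51 ± 0.27, limma adjusted p = 0.000315) and in OV90CisR1 against OV90 (1.08 ± 0.27, limma adjusted p = 0.0221). The call in OV90CisR1 was lost without OV90 replicate 1 or OV90CisR1 replicate 1 or 2 (adjusted p up to 0.0813). LUM, the proteoglycan lumican, rose in OV90CisR2 against OV90 (3.36 ± 0.52, limma adjusted p = 0.00469), and COL3A1 rose in OV90CisR1 against OV90 (1.43 ± 0.25, limma adjusted p = 0.00534). LUM in OV90CisR1 against OV90 gave 0.61 ± 0.52 (limma adjusted p = 0.432), and 1.64 ± 0.17 without the 2 libraries that stood apart (limma adjusted p = 8.74e-06). DCN (1.43 ± 0.27, limma adjusted p = 0.00829) and LUM (2.75 ± 0.52, limma adjusted p = 0.00897) were higher in OV90CisR2 than in OV90CisR1, and COL3A1 was lower (-1.31 ± 0.25, limma adjusted p = 0.00939). COL1A1 and PDGFRB, tested in the same list, were not called in any comparison (limma adjusted p from 0.301 to 0.846). Against OV90, COL1A1 gave -0.15 ± 0.31 in OV90CisR2 and -0.35 ± 0.31 in OV90CisR1. PDGFRB gave 0.21 ± 0.24 in OV90CisR2 and -0.19 ± 0.24 in OV90CisR1. KRT8, an epithelial keratin, rose in OV90CisR2 against OV90 (3.32 ± 0.76, limma adjusted p = 0.0397), a call lost when any of 7 libraries was left out (adjusted p up to 0.168). KRT8 in OV90CisR1 against OV90 gave 1.25 ± 0.76 (limma adjusted p = 0.268), and 2.69 ± 0.47 without the 2 libraries that stood apart (limma adjusted p = 0.000673). Set between the resistant lines it gave 2.07 ± 0.76 (limma adjusted p = 0.104), and 1.62 ± 0.43 without these libraries (limma adjusted p = 0.0113). EPCAM, the other tested epithelial marker, was not called in any comparison (limma adjusted p from 0.263 to 0.727). Against OV90, EPCAM gave -0.32 ± 0.25 in OV90CisR2 and 0.14 ± 0.25 in OV90CisR1. CD68 was lower in OV90CisR2 than in OV90CisR1 (-1.42 ± 0.37, limma adjusted p = 0.0363), a call lost when any of 5 libraries was left out (adjusted p up to 0.121). Without the 2 libraries that stood apart CD68 was also lower in OV90CisR2 than in OV90 (-0.86 ± 0.24, limma adjusted p = 0.0153) and higher in OV90CisR1 than in OV90 (0.77 ± 0.26, limma adjusted p = 0.0398).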
